A study of Rattus norvegicus with 18 samples.

Results

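The nuclear pore and nuclear transport genes described here are the 34 genes, of 13188 in the expression table, whose symbols begin with Nup, Kpna, Kpnb, Ipo or Xpo followed by a number, or read Xpot. They comprise 17 nucleoporins, 6 importin alpha genes, 5 importin beta and import receptor genes, and 6 exportins. The rule reads the symbol alone. Expression was measured by poly-A RNA-seq in HO15.19 cells, a rat fibroblast line in which endogenous myc is knocked out, and every group carries this deletion. There were 6 groups of 3 cultures, all grown in 10% FBS: myc-/- cells without transfection, myc-/- cells with a stably introduced human MYC transgene (myc-/- + MYC) without transfection, both kinds of cell after transfection of siCtrl (a control siRNA), and MYC cells that received siAHR-2 or siAHR-5, both directed against the aryl hydrocarbon receptor (AHR). Where siRNA was used, it was given at 40 nM and cells were harvested after 48 h. MYC was expressed from a retroviral promoter, so that cells with and without it are separate stable lines, and the sources used here do not say how the 3 cultures of a group were grown apart, so that p-values then measure only the spread between these cultures. Fewer cells of a kind and less RNA per cell cannot be told apart in such bulk libraries.

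The nuclear pore complex is the channel through which proteins and RNA pass between nucleus and cytoplasm. Its scaffold consists of an outer ring made of Y-shaped complexes and an inner ring, which together hold the nucleoporins whose phenylalanine-glycine repeats fill the channel. Cargo with a nuclear localization signal is bound by importin alpha and carried by importin beta, other import receptors bind their cargo directly, and exportins carry proteins and RNA out; the small GTPase Ran sets the direction by releasing import cargo and loading export cargo inside the nucleus. MYC is a transcription factor that binds E-box sequences and is known to raise genes of cell growth, and AHR is a ligand-activated transcription factor that binds response elements with a GCGTG core.

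Promoters were examined because MYC and AHR bind DNA at short sequences. RefSeq promoters of the GRCr8 assembly, 250 bases before to 50 bases after the annotated start, were found by symbol for 28 of the 34 members. CACGTG, the canonical E-box, which reads the same on both strands, was present in the promoters of 3 members, Ipo4, Ipo7 and Nup54, or 10.7%, compared with 8.9% of 9842 promoters of genes in the expression table. The GCGTG core, on either strand, was present in 13 members, or 46.4%, compared with 47% of the same promoters. The motifs can share bases at their ends but neither contains the other. The promoters of Nup37, Nup85 and Kpna5 are shown because these genes were higher with MYC in both comparisons, and that of Ipo7 because it holds an E-box while its expression did not pass the test for MYC. Each covers 250 bases before the start and the first 30 after it, 5′ to 3′, with E-boxes and AHR cores of either strand in capitals.
Nup37 promoter, GRCr8 chr7:24460982-24461261, plus strand: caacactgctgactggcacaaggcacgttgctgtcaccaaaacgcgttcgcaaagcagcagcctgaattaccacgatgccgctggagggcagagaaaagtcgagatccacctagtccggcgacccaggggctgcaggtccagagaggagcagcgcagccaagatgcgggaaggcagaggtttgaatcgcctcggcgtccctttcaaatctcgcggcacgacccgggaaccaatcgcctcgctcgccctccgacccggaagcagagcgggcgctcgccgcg
Nup85 promoter, GRCr8 chr10:101305185-101305464, plus strand: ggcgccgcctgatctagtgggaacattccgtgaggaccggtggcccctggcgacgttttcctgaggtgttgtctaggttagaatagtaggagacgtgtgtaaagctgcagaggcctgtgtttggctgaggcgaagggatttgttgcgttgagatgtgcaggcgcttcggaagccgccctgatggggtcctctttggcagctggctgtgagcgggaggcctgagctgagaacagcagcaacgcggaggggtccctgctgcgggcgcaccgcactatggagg
Kpna5 promoter, GRCr8 chr20:31365435-31365714, plus strand: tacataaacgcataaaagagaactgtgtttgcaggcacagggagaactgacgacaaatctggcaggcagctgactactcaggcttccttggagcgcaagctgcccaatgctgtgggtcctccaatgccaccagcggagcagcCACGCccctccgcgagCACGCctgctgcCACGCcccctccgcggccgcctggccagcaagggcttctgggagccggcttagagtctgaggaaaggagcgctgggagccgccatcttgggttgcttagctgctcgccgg
Ipo7 promoter, GRCr8 chr1:173497222-173497501, plus strand: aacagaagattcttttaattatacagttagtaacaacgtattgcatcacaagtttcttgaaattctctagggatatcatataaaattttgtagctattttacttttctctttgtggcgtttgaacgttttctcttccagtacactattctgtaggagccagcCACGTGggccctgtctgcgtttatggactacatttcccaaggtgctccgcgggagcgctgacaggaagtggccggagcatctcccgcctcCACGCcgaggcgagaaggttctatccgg
In these windows Nup37 and Nup85 held neither motif, Kpna5 held 3 GCGTG cores and Ipo7 held 1 E-box, with its first base at position -88 from the start, and 1 GCGTG core.

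Values were compared only among libraries that share a scale. The groups myc-/- + MYC and myc-/- siCtrl, headed Myc and control in the table, make up a set of 6 libraries, and 12 libraries hold the other groups. The library medians were at most 11.05 in the first, called the small set here, and at least 11.61 in the second, the large set. In both sets the MYC comparison therefore also changes the transfection label, and MYC and transfection cannot be told apart. The transfection labels of the myc-/- groups are themselves in doubt, since they cross the scales and the headings control and Sed name no siRNA, and this could not be settled here. Both groups are labelled as lacking MYC, so that which side of each comparison carries MYC does not depend on it. Median expression of the members was above that of all genes, between 13.20 and 13.47 in the small set and between 14.21 and 14.71 in the large set. The remaining rat Myc signal was lower with the transgene in both sets (log2FC -1.26 and -2.68). Ahr had a log2FC of 0.52 and 1.40 with MYC, and it fell by 1.29 with siAHR-2 and by 1.39 with siAHR-5 on the log2 scale. Of 8 fibroblast markers, 7 were above a log2 value of 5 in at least 1 library of each set, while Col1a2, a collagen gene that fibroblasts normally express, stayed below 5 in every library. On the log2 scale the summed fibroblast markers reached between 19.87 and 20.82 in the small set and between 19.94 and 22.18 in the large set. The summed epithelial, endothelial, immune and germ cell markers did not exceed 9.73 in any library. With MYC, 4 of the 8 fibroblast markers were lower and 1 higher in the small set, beside 14.3% and 12.5% of all genes. In the large set 4 were lower and 0 higher, beside 14.7% and 10.8%. The part of these markers in the results below was not tested. In the large set, replicate 2 of the myc-/- group stood apart from the other replicates for many members, and the median SD of the members was 0.0946 in that group against 0.0239 to 0.0513 in the other groups.

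Few of these genes moved far with MYC. A gene was called higher or lower when it changed by a fold of at least 1.5 and its Benjamini-Hochberg adjusted p in limma did not exceed 0.01. In the small set (myc-/- + MYC against myc-/- siCtrl) 3 of 34 members were higher, or 8.82%, compared with 12.5% of all genes, and 1 was lower, or 2.94%, compared with 14.3%. In the large set (myc-/- + MYC siCtrl against myc-/-) 6 were higher, or 17.6%, compared with 10.8%, and 0 were lower, compared with 14.7%; without the fold cutoff, 6 were lower at an FDR below 0.05. Nup37, Nup85 and Kpna5 were higher in both sets. Nup107, Nup155 and Xpot also passed in the large set and Xpo6 passed, as lower, in the small set; of these 4, Nup155 had a MYC effect that differed between the sets past the same cutoffs.

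Small shifts were common. With no fold cutoff and an FDR under 0.05, 15 members were higher and 15 lower in the small set (44.1% and 44.1%), compared with 37.3% and 39.0% of all genes. In the large set, 17 were higher and 6 lower (50% and 17.6%), compared with 31.6% and 33.1%. The 3 MYC libraries lay wholly above the 3 libraries without MYC for 16 members and wholly below for 16 in the small set, where 37.9% and 40.9% of all genes did so. For the large set these numbers were 20 and 6, beside 33.8% and 36.7% of all genes. The median log2FC of the members was -0.06 in the small set and 0.15 in the large set, while that of all genes was 0.00 and 0.00. In the small set, 16 members had a log2FC above 0. Quantile normalization brought 6 more above 0 there, so that the sign of the small-set median depends on the scaling. In the large set it raised the log2FC of every member and brought 2 more above 0.

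**Figure D1:**
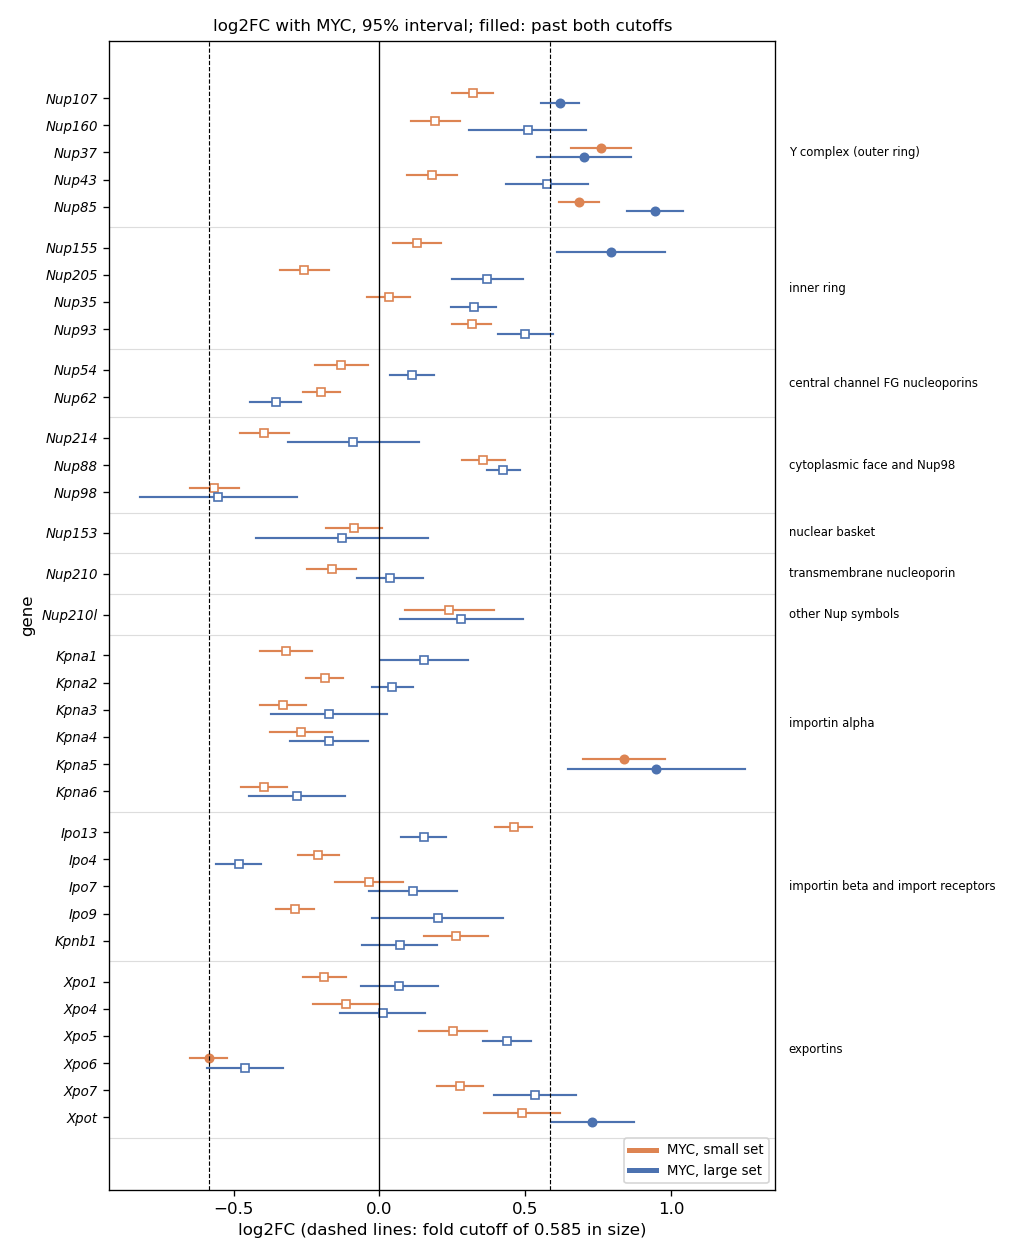
The log2FC with MYC of each of the 34 members, grouped by role, is shown with its 95% interval for the small set (orange) and the large set (blue); filled circles passed both cutoffs and dashed lines mark the fold cutoff of 1.5. The 5 genes grouped under the outer ring lie to the right of 0 in both sets, and Kpna5 stands apart from the other importin alpha genes.

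The 5 members grouped under the Y complex, the scaffold unit of the outer ring, had a positive log2FC in both sets, also after quantile normalization or median centring. Of all genes, 48.8% in the small set and 48% in the large set were above 0. Each of the 5 was higher without overlap between the groups, as were 37.9% and 33.8% of all genes. Their median was 0.32 in the small set and 0.62 in the large set. Outside the symbol rule, and named after its values were seen, the Y complex subunit Sec13 had -0.01 (adjusted p = 0.741 in limma) and -0.27 (adjusted p = 0.00327 in limma). Ahctf1, which binds the complex and was likewise named afterwards, had 0.20 (adjusted p = 0.00327 in limma) and 0.56 (adjusted p = 8.07e-04 in limma). Nup98, grouped here with the cytoplasmic face, also encodes the Y complex subunit Nup96 and had -0.57 and -0.55. Nup133 and Seh1l, further subunits, had no values under these symbols. The shared direction therefore holds for the 5 members grouped here and not for every measured gene of this ring. Nup85, a core subunit of the short arm of the complex, measured 13.14, 13.13 and 13.07 in the myc-/- siCtrl libraries and 13.77, 13.80 and 13.81 in the myc-/- + MYC libraries. The groups did not overlap, and Nup85 rose by a log2FC of 0.68 ± 0.0312 (SE, adjusted p = 3.27e-09 in limma). For the large set the values of Nup85 were 13.85, 13.94 and 13.84 in myc-/- cells and 14.79, 14.81 and 14.86 in myc-/- + MYC siCtrl cells. Every library with MYC was again above every library without it, with a log2FC of 0.94 ± 0.0387 (SE, adjusted p = 6.27e-06 in limma), a fold of 1.92. Nup37, a peripheral subunit, measured 10.67, 10.55 and 10.60 without and 11.40, 11.37 and 11.32 with MYC in the small set. It rose with a log2FC of 0.76 ± 0.0462 (SE, adjusted p = 3.86e-08 in limma). Its values in the large set were 11.58, 11.73 and 11.52 in myc-/- cells and 12.37, 12.25 and 12.32 in myc-/- + MYC siCtrl cells, with no overlap and a log2FC of 0.70 ± 0.0654 (SE, adjusted p = 1.87e-04 in limma).

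The span of Nup37 overlaps that of Parpbp in the RefSeq gene table, and because the library kit does not mark strand, reads of the 2 genes may not be separable; Parpbp had a log2FC of 0.21 in the small set and 0.73 in the large set. The same limit holds for 5 other members that overlap protein-coding genes, given here with the log2FC of the overlapping gene in the small and the large set: Nup43 with Pcmt1 (-0.20 and -0.05), Nup35 with Dusp19 (0.33 and 0.40), Nup62 with Atf5 (-0.40 and -1.50) and with Il4i1, Nup88 with Rabep1 (0.18 and -0.25), and Xpo7 with Dok2 (0.62 and 0.13). Kpna5, Nup155, Nup98, Xpot and some further members overlap only pseudogenes or noncoding genes in that table, with the same limit on strand. Nup107, which lies in the stem of the Y, measured 14.21, 14.23 and 14.22 in myc-/- cells and 14.84, 14.81 and 14.87 in myc-/- + MYC siCtrl cells. This separation was wide beside the spread of either group, and the log2FC was 0.62 (SE 0.0262, adjusted p = 7.01e-06 in limma). In the small set, Nup107 had a log2FC of 0.32 (adjusted p = 2.76e-06 in limma), below the fold cutoff. Nup43 and Nup160, both further subunits of the Y, stayed below the fold cutoff in both sets, at 0.18 and 0.19 in the small set and at 0.57 and 0.51 in the large set. Nup43 passed in the large set when myc-/- replicate 2 or myc-/- + MYC siCtrl replicate 3 was left out, after median centring (0.62) and after quantile normalization (0.63). Nup160 passed there after quantile normalization (0.60).

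**Figure D2:**
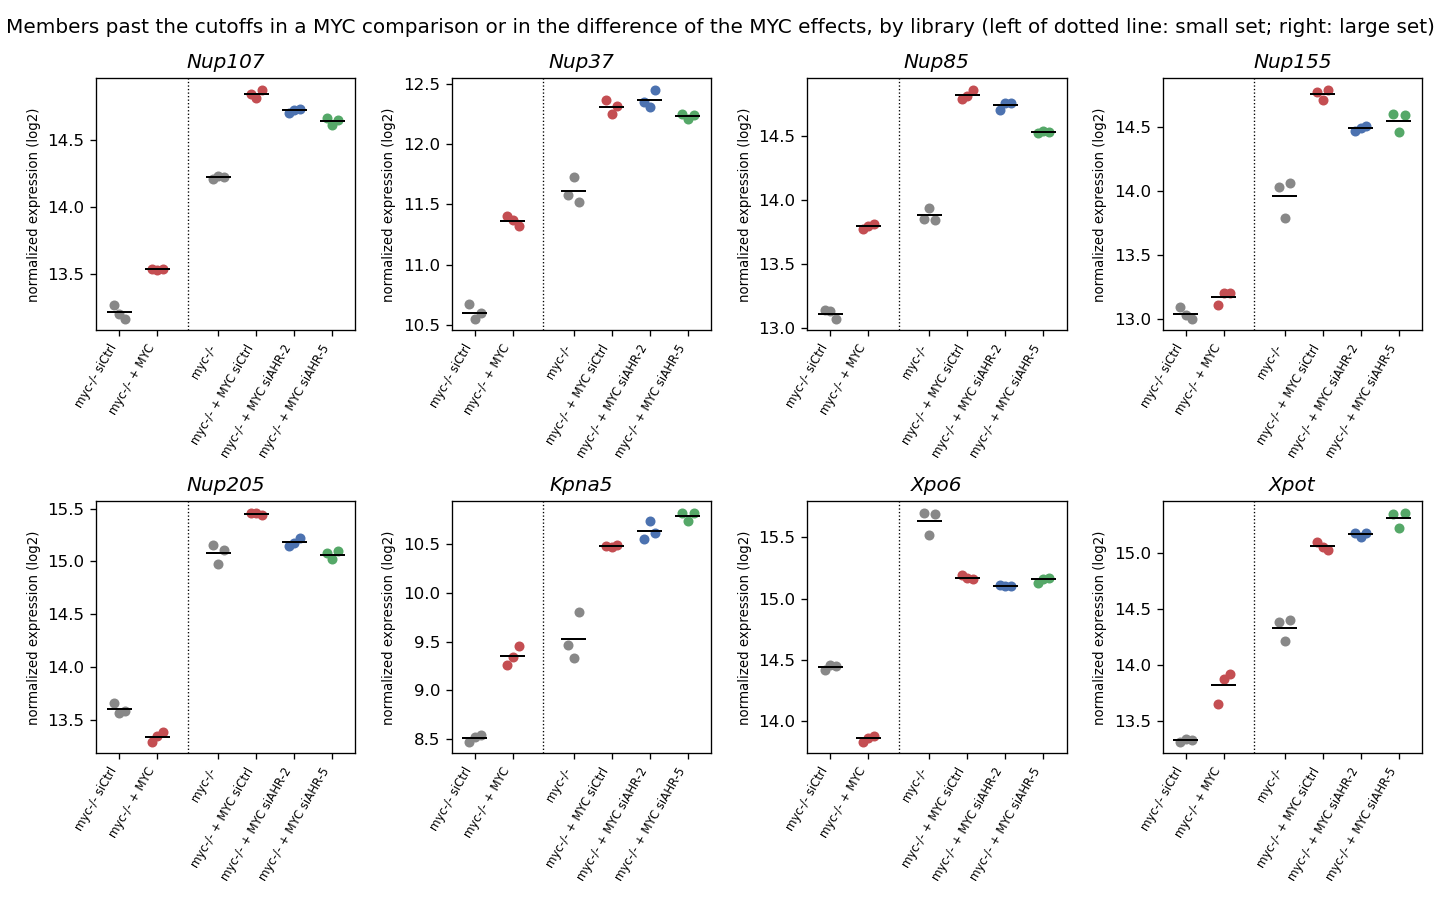
Normalized expression on the log2 scale is plotted for each library (points) with the group mean (line) for the 8 members called in a MYC comparison or in the difference between the sets; the dotted line separates the small set from the large set, which are on different scales. Nup85 and Nup37 lie higher with MYC on both sides of the line, Nup205 is lower with MYC on the left and higher on the right, and the 3 myc-/- cultures spread most for Kpna5.

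In the inner ring, the scaffold that lines the channel, the MYC effect was larger in the large set for 4 of 4 genes at an FDR under 0.05, beside 52.9% of the members and 24.8% of all genes, and past the fold cutoff for Nup155 and Nup205. Nup155, an inner ring nucleoporin that contacts the nuclear membrane, measured 13.09, 13.03 and 13.00 without and 13.11, 13.20 and 13.20 with MYC in the small set, a difference of 0.13 (adjusted p = 0.00884 in limma). Its values in the other set were 14.03, 13.79 and 14.06 in myc-/- and 14.77, 14.71 and 14.79 in myc-/- + MYC siCtrl cells, with a log2FC of 0.79 ± 0.0753 (SE, adjusted p = 2.01e-04 in limma). Nup205, a large scaffold protein of the ring, went from 13.66, 13.56 and 13.58 to 13.29, 13.35 and 13.38 in the small set, a log2FC of -0.26 ± 0.0376 (SE, adjusted p = 7.05e-05 in limma). It lay at 15.16, 14.98 and 15.11 in myc-/- cells and at 15.46, 15.46 and 15.44 in myc-/- + MYC siCtrl cells, which gave a log2FC of 0.37 ± 0.0498 (SE, adjusted p = 9.52e-04 in limma). Both of its changes were below the fold cutoff, they had opposite signs, and the groups did not overlap in either set. After quantile normalization Nup205 had -0.12 in the small set and 0.55 in the large set.

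The difference of the MYC effects (large set minus small set), tested in a single fit of 12 libraries, was 0.67 for Nup155 (SE 0.0832, adjusted p = 8.27e-06 in limma) and 0.63 for Nup205 (SE 0.0657, adjusted p = 1.27e-06 in limma). These were the 2 members called of 34, or 5.88%, compared with 6.79% of all genes called in this direction and 9.67% in the other. Without myc-/- replicate 2 the differences were 0.58 for both, below the fold cutoff, so that their calls rest on that library. Nup93, which anchors the inner ring and the channel, had 0.32 (adjusted p = 1.93e-06 in limma) in the small set and 0.50 (adjusted p = 7.74e-05 in limma) in the large set, and Nup35 0.03 (adjusted p = 0.406 in limma) and 0.32 (adjusted p = 2.12e-04 in limma), all below the fold cutoff. After quantile normalization Nup93 passed in the large set (0.66).

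Nucleoporins of the channel, the cytoplasmic face and the basket had log2FC of both signs. Nup62, a channel protein with phenylalanine-glycine repeats, had a negative log2FC in both sets, -0.20 (adjusted p = 6.45e-05 in limma) and -0.36 (adjusted p = 2.38e-04 in limma), and its partner Nup54 had -0.13 (adjusted p = 0.0136 in limma) and 0.11 (adjusted p = 0.0192 in limma). After quantile normalization Nup62 had 0.01 in the small set. Nup98, a mobile repeat nucleoporin whose transcript also encodes the Y complex subunit Nup96, measured 14.53, 14.45 and 14.43 without and 13.85, 13.89 and 13.96 with MYC in the small set. The MYC libraries were lower by more than the spread within either group, with a log2FC of -0.57 ± 0.0378 (SE, adjusted p = 8.72e-08 in limma), just inside the fold cutoff. It was called lower there after median centring (-0.61) and without myc-/- + MYC replicate 3, and had -0.35 after quantile normalization. Its large-set values were 15.90, 15.51 and 15.85 and 15.27, 15.20 and 15.13, with replicate 2 of the myc-/- cultures well below the others and a log2FC of -0.55 ± 0.11 (SE, adjusted p = 0.00521 in limma). Without that replicate it passed as lower, making it the single member lower in the large set.

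Nup88 and Nup214 sit together on the cytoplasmic side and moved apart in the small set, where Nup88 had 0.36 (adjusted p = 1.67e-06 in limma) and Nup214 had -0.40 (adjusted p = 2.12e-06 in limma). Nup88 had 0.42 (adjusted p = 1.84e-05 in limma) in the large set, while Nup214 had -0.09 (adjusted p = 0.419 in limma), or 0.02 after quantile normalization. The basket protein Nup153 had a log2FC of -0.09 (95% interval -0.18 to 0.01) and -0.13 (-0.42 to 0.17), neither past the test, and after quantile normalization 0.13 and 0.07. Nup210, a membrane-spanning nucleoporin, had -0.16 (adjusted p = 0.00222 in limma) and 0.04 (adjusted p = 0.507 in limma). Nup210l, a relative of Nup210 known mainly from testis, had means of 5.50 ± 0.0559 and 5.74 ± 0.144 (SD, n = 3) in the small set, and its log2FC was 0.24 in the small set and 0.28 in the large set, below the fold cutoff.

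Among importin alpha genes, the adaptors that recognise nuclear localization signals, Kpna5 rose with MYC in both sets. Kpna5 measured 8.47, 8.52 and 8.54 in myc-/- siCtrl cells and 9.26, 9.34 and 9.45 in myc-/- + MYC cells. It rose by a log2FC of 0.84 ± 0.0643 (SE, adjusted p = 2.91e-07 in limma), the largest rise of the 34 members in the small set. Large-set values of Kpna5 were 9.46, 9.33 and 9.80 in myc-/- cells and 10.48, 10.47 and 10.49 in myc-/- + MYC siCtrl cells. The groups did not overlap although the myc-/- cultures spread by an SD of 0.244, and the rise was a log2FC of 0.95 ± 0.123 (SE, adjusted p = 8.08e-04 in limma), close to that of Nup85. Their order turned after quantile normalization (1.03 for Kpna5 and 1.06 for Nup85) and without myc-/- replicate 2 (0.85 and 0.98), myc-/- replicate 1 (0.91 and 0.93) or myc-/- + MYC siCtrl replicate 1 (0.95 and 0.96). Over the fits that left out each library in turn, it stayed between 0.85 and 1.09 in the large set and between 0.79 and 0.88 in the small set. The other 5 importin alpha genes, Kpna1, Kpna2, Kpna3, Kpna4 and Kpna6, had log2FC between -0.40 and -0.19 in the small set (Kpna2 had 0.05 after quantile normalization), each without overlap between groups, as 40.9% of all genes were in this direction, and each below the fold cutoff. Of these, Kpna2, the isoform most tied to dividing cells, had a log2FC of -0.19 (adjusted p = 8.58e-05 in limma) and Kpna6 of -0.40 (adjusted p = 1.20e-06 in limma). For the large set the same genes lay between -0.28 and 0.15. Importin alpha genes are close relatives, and how the authors' counting treated reads that fit more than 1 of them is not given in the sources used here.

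The import receptors of the importin beta family showed 0 calls in limma among 5 genes in both sets. At an unadjusted p under 0.05, 4 of 5 differed in the small set and 2 in the large set, beside 77.5% and 67.3% of all genes. Ipo13 was called higher in the small set after quantile normalization (0.61). Kpnb1, importin beta itself, had a log2FC of 0.26 (adjusted p = 5.23e-04 in limma) in the small set and 0.07 (adjusted p = 0.293 in limma) in the large set. Ipo13, a receptor that works in both directions, was the farthest above 0 in the small set at 0.46 (adjusted p = 4.56e-08 in limma), against 0.15 (adjusted p = 0.00656 in limma) in the large set. Ipo4, which imports histones and ribosomal proteins, measured 16.07, 16.09 and 16.04 in myc-/- cells and 15.54, 15.61 and 15.60 in myc-/- + MYC siCtrl cells. Its values were lower in every library with MYC, with a log2FC of -0.48 ± 0.0319 (SE, adjusted p = 4.22e-05 in limma), compared with -0.21 (adjusted p = 9.16e-05 in limma) in the small set, where it had 0.02 after quantile normalization. Ipo7, which carries ribosomal proteins and histone H1, had -0.04 (95% interval -0.15 to 0.08) and 0.11 (-0.04 to 0.26), and the groups overlapped in the small set. Ipo9 had opposite signs, -0.29 (adjusted p = 3.49e-06 in limma) in the small set and 0.20 (adjusted p = 0.105 in limma) in the large set. After quantile normalization Ipo9 had -0.07 and 0.38.

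Among the exportins, which carry cargo out of the nucleus, 1 of 6 passed in each set, or 16.7%. It was lower in the small set, beside 14.3% of all genes, and higher in the large set, beside 10.8%. Xpot, which exports transfer RNA, measured 14.38, 14.21 and 14.40 in myc-/- cells and 15.10, 15.05 and 15.03 in myc-/- + MYC siCtrl cells. All MYC libraries were higher, with a log2FC of 0.73 ± 0.058 (SE, adjusted p = 9.22e-05 in limma). In the small set it measured 13.31, 13.34 and 13.33 without and 13.65, 13.87 and 13.92 with MYC, with a log2FC of 0.49 ± 0.0592 (SE, adjusted p = 1.49e-05 in limma), below the fold cutoff, and after quantile normalization it passed as higher. Xpo6, which exports actin with profilin, measured 14.42, 14.46 and 14.45 in myc-/- siCtrl cells and 13.83, 13.86 and 13.88 in myc-/- + MYC cells. It fell with a log2FC of -0.59 ± 0.0285 (SE, adjusted p = 5.72e-09 in limma), at the edge of the fold cutoff. The call of Xpo6 was lost when myc-/- siCtrl replicate 2 (-0.58), myc-/- siCtrl replicate 3 (-0.58) or myc-/- + MYC replicate 1 (-0.57) was left out, and after quantile normalization (-0.37). Xpo6 in the large set measured 15.70, 15.52 and 15.69 in myc-/- and 15.19, 15.17 and 15.16 in myc-/- + MYC siCtrl cells, with a log2FC of -0.46 ± 0.0531 (SE, adjusted p = 4.70e-04 in limma), lower in every MYC library but below the fold cutoff.

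The remaining exportins stayed below the fold cutoff, except that Xpo7 passed in the large set after quantile normalization (0.68). Xpo5, which exports precursor microRNA, had a log2FC of 0.25 (adjusted p = 0.00103 in limma) and 0.44 (adjusted p = 7.97e-05 in limma), and Xpo7 had 0.28 (adjusted p = 2.72e-05 in limma) and 0.53 (adjusted p = 3.39e-04 in limma). Xpo1, also called CRM1, the general exporter of proteins with a leucine-rich export signal, had -0.19 (adjusted p = 2.89e-04 in limma) in the small set (0.04 after quantile normalization) and 0.07 (adjusted p = 0.317 in limma) in the large set. Xpo4 had a log2FC of -0.12 (95% interval -0.23 to -0.0018) and 0.01 (-0.14 to 0.16), and both intervals lay inside the fold cutoff.

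The 2 MYC comparisons share no library, and their effects on the members can be set side by side. Across the 34 members Pearson's r between the effects was 0.838, and across all 13188 genes it was 0.741. Genes are not independent replicates, and all libraries come from the same cell lines. Effects were higher in the large set for 28 of 34 members, or 26 after quantile normalization and 30 after median centring, with a median difference of 0.18, while 46.7% of all genes had a difference above 0. Of these differences, 18 members at an FDR below 0.05 had a larger and 3 a smaller log2FC in the large set, beside 24.8% and 30.1% of all genes. Those with smaller values were Nup62, Ipo4 and Ipo13.

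**Figure D3:**
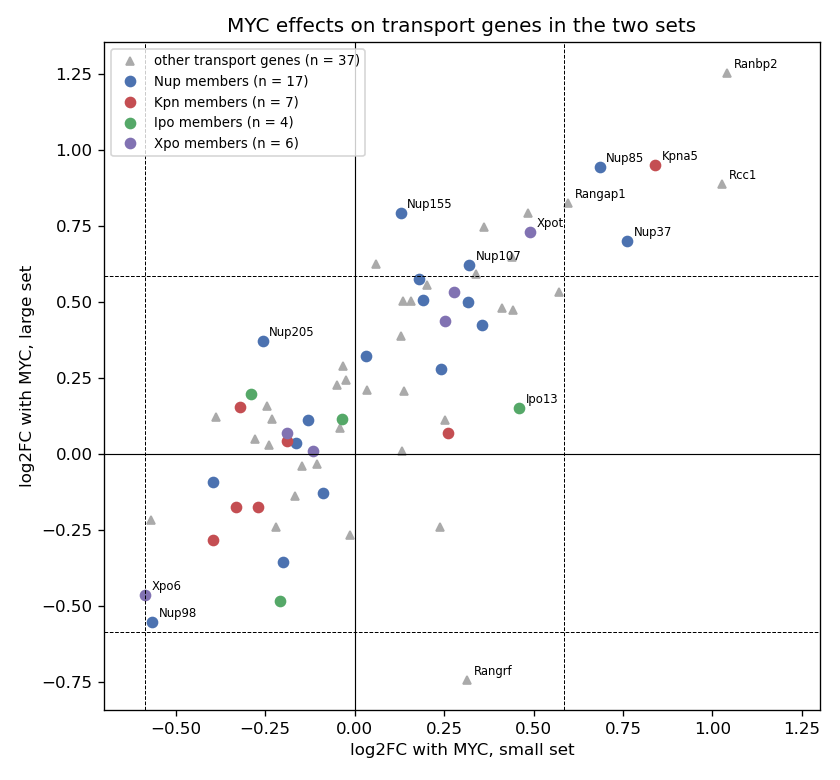
Each member (circle) and each other transport gene (triangle) is placed by its log2FC with MYC in the small set (horizontal axis) and in the large set (vertical axis), with dashed lines at the fold cutoff of 1.5. Nup85, Nup37 and Kpna5 lie past the cutoff on both axes together with Ranbp2, Rcc1 and Rangap1, and Rangrf lies in the lower right.

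Transport genes that the symbols did not select were examined from a list, of which 37 of 39 were in the table. In the small set, 3 were higher and 0 lower (8.11% and 0%), beside 12.5% and 14.3% of all genes. With no fold cutoff and an FDR under 0.05 these were 19 and 10 (51.4% and 27%), beside 37.3% and 39.0%. Of the same genes 8 were higher and 1 lower in the large set (21.6% and 2.7%), beside 10.8% and 14.7% of all genes. Those higher in both sets were Ranbp2, the large nucleoporin of the cytoplasmic filaments, Rcc1, which loads Ran with GTP on chromatin, and Rangap1, which triggers its hydrolysis outside the nucleus. Ranbp2 measured 13.28, 13.10 and 13.06 without and 14.09, 14.23 and 14.25 with MYC in the small set, and 14.88, 14.52 and 14.85 and 16.10, 15.93 and 15.98 in the large set. The groups were apart in both, with log2FC of 1.04 (adjusted p = 1.74e-08 in limma) and 1.25 (adjusted p = 1.33e-04 in limma), each larger than that of any of the 34 members. Rcc1 had 1.03 (adjusted p = 8.47e-09 in limma) and 0.89 (adjusted p = 5.07e-06 in limma), and Rangap1 0.60 (adjusted p = 1.88e-07 in limma) and 0.83 (adjusted p = 2.97e-05 in limma). Rangap1 was close to the fold cutoff in the small set: its log2FC was 0.58 without myc-/- + MYC replicate 2, 0.56 without replicate 3 of that group and 0.55 with median centring, all below the cutoff. Ran itself, also named after its values were seen, had 0.36 (adjusted p = 5.51e-06 in limma) in the small set, below the fold cutoff, and passed in the large set with 0.75 (adjusted p = 7.29e-05 in limma).

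By list, all 6 measured genes of the Ran cycle had a positive log2FC in the small set, with a median of 0.34, beside 48.8% of all genes. In the large set 5 of 6 did, with a median of 0.62, beside 48% of all genes. The exception was Rangrf, named after its values were seen, a small protein that binds Ran. It measured 10.46, 10.85 and 10.60 in myc-/- cells and 9.85, 9.95 and 9.88 in myc-/- + MYC siCtrl cells. It fell there with a log2FC of -0.74 ± 0.105 (SE, adjusted p = 0.00118 in limma) and had 0.31 (adjusted p = 0.00175 in limma) in the small set. Its difference between the sets was -1.06 (adjusted p = 5.99e-06 in limma). Of 15 mRNA export genes, 0 passed in the small set, where 11 had an unadjusted p under 0.05 in limma (all genes 77.5%), and 3 in the large set (20%, beside 10.8% of all genes), namely Ddx19b, Thoc3 and Thoc6, named after their values were seen. Thoc3 was below the fold cutoff without myc-/- + MYC siCtrl replicate 3 (0.57) or myc-/- replicate 1 (0.58). The 4 other karyopherins, Cse1l, which recycles importin alpha to the cytoplasm, Tnpo1, Tnpo2 and Tnpo3, had 0 calls in both sets, with log2FC between -0.39 and 0.24 and between -0.24 and 0.21; of the 4, 3 and 4 had an unadjusted p under 0.05 in limma, beside 77.5% and 67.3% of all genes.

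Of 12 proliferation markers, 0 were higher and 2 lower with MYC in the small set, with a median log2FC of -0.11, where 12.5% and 14.3% of all genes were called. With no fold cutoff and an FDR under 0.05, 2 were higher and 8 lower, beside 37.3% and 39.0% of all genes. With MYC in the large set, 3 were higher and 1 lower, with a median of 0.24, where 10.8% and 14.7% of all genes were called. At the FDR alone 8 were higher and 1 lower there, beside 31.6% and 33.1%. Their MYC effect was larger in the large set for 12 of 12, where 46.7% of all genes had a difference above 0, and past the cutoffs for 3, where 6.79% of all genes were called. Their part in the MYC effects on transport genes was not tested.

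AHR knockdown was examined against siCtrl in cells with MYC, in the large set, to ask whether AHR acts on these genes when MYC is present. With either siRNA 0 of 34 members passed the cutoffs, while 0.159% of all genes were higher and 0.311% lower with siAHR-2, and 1.47% and 0.849% with siAHR-5. At an unadjusted p under 0.05 in limma, 22 members differed with siAHR-2 and 20 with siAHR-5, as did 40.4% and 47.8% of all genes. The members' log2FC ran from -0.34 to 0.25 with siAHR-2. They ran from -0.50 to 0.32 with siAHR-5. Of the 34, 10 had a log2FC above 0 with each siRNA, beside 53.4% and 59.3% of all genes, against 12 and 15 members after quantile normalization and 7 and 8 after median centring, for siAHR-2 and siAHR-5 in turn. With no fold cutoff and an FDR under 0.05, 15 members were lower and 2 higher with siAHR-2 (44.1% and 5.88%), beside 15.5% and 13.7% of all genes. With siAHR-5, 14 were lower and 4 higher (41.2% and 11.8%), beside 18.1% and 21.1%. The libraries did not overlap in 17 members that were lower with siAHR-2 and in 17 with siAHR-5, or 50% each, where 21.8% and 22.2% of all genes were so. The comparisons share the 3 siCtrl libraries with each other and with the MYC comparison of the large set, so that likeness between them is no independent result.

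**Figure D4:**
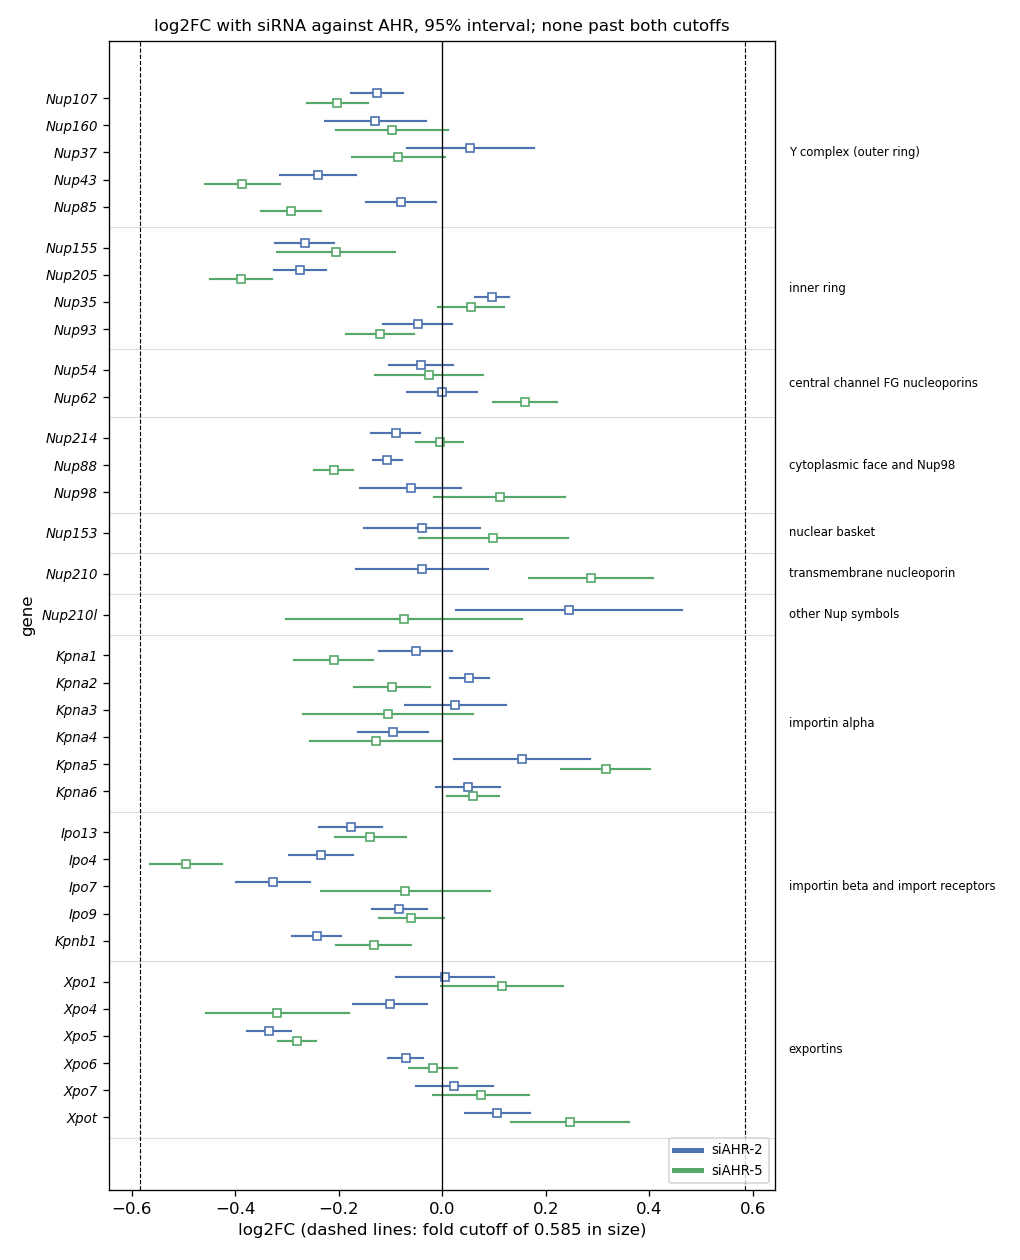
The log2FC of each member with siAHR-2 (blue) and siAHR-5 (green) against siCtrl is shown with its 95% interval, by role, with dashed lines at the fold cutoff of 1.5. All points lie between the dashed lines, and the 5 import receptors of the importin beta family lie to the left of 0 with both siRNAs, which quantile normalization changed for 3 of them with siAHR-5.

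The members described next for AHR were chosen after their values were seen. Ipo4 measured 15.54, 15.61 and 15.60 with siCtrl, 15.34, 15.34 and 15.37 with siAHR-2 and 15.09, 15.11 and 15.06 with siAHR-5. The 3 groups did not overlap, and the log2FC was -0.24 (adjusted p = 0.00239 in limma) with siAHR-2 and -0.50 (adjusted p = 3.42e-04 in limma) with siAHR-5, the latter the lowest of the 34 members. All 5 import receptors of the importin beta family had a negative log2FC with both siRNAs, with medians of -0.24 and -0.13, but after quantile normalization 3 of 5 were above 0 with siAHR-5, namely Ipo7, Ipo9 and Kpnb1. Ipo7 measured 16.28, 16.18 and 16.20 with siCtrl, 15.87, 15.89 and 15.91 with siAHR-2 and 16.23, 16.01 and 16.20 with siAHR-5. Its siAHR-2 libraries were below all others while siAHR-5 overlapped siCtrl, with log2FC of -0.33 (adjusted p = 0.00143 in limma) and -0.07 (adjusted p = 0.436 in limma). Kpnb1 had -0.24 (adjusted p = 0.00108 in limma) and -0.13 (adjusted p = 0.0163 in limma).

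In the scaffold, Nup205 measured 15.46, 15.46 and 15.44 with siCtrl, 15.15, 15.17 and 15.22 with siAHR-2 and 15.08, 15.02 and 15.10 with siAHR-5. Both siRNAs gave values below every siCtrl library, with log2FC of -0.27 (adjusted p = 9.37e-04 in limma) and -0.39 (adjusted p = 4.04e-04 in limma). Nup43 had -0.24 (adjusted p = 0.00358 in limma) and -0.39 (adjusted p = 6.09e-04 in limma), and Nup85, which had risen with MYC, had -0.08 (adjusted p = 0.0796 in limma) and -0.29 (adjusted p = 6.89e-04 in limma). Nup37 had a log2FC of 0.05 (95% interval -0.07 to 0.18) and -0.08 (-0.18 to 0.01), both intervals inside the fold cutoff. Xpo5, the exporter of precursor microRNA, measured 14.70, 14.71 and 14.72 with siCtrl, 14.39, 14.35 and 14.39 with siAHR-2 and 14.43, 14.43 and 14.44 with siAHR-5, with log2FC of -0.34 (adjusted p = 4.47e-04 in limma) and -0.28 (adjusted p = 3.11e-04 in limma). Kpna5 and Xpot, both higher with MYC, had positive log2FC with both siRNAs, 0.15 and 0.32 for Kpna5 and 0.11 and 0.25 for Xpot. Nup107 and Nup155, also higher with MYC in the large set, had negative log2FC with siAHR-2 and siAHR-5. These were -0.13 and -0.20 for Nup107 and -0.27 and -0.205 for Nup155.

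Compared directly, siAHR-5 and siAHR-2 differed past the cutoffs in 0 of 34 members, beside 1.33% of all genes higher and 0.849% lower, and 24 members had an unadjusted p under 0.05 in limma, as did 46.8% of all genes. The farthest apart were Nup210, at 0.33 (adjusted p = 0.00506 in limma) for siAHR-5 minus siAHR-2, Nup210l at -0.32 (adjusted p = 0.0202 in limma), Ipo4 at -0.26 (adjusted p = 4.05e-04 in limma) and Ipo7 at 0.26 (adjusted p = 0.0204 in limma). Among the other transport genes, Ddx39a, an RNA helicase of mRNA export, was the single gene of 37 past the cutoffs with an siRNA. It measured 14.65, 14.70 and 14.77 with siCtrl, 14.40, 14.39 and 14.39 with siAHR-2 and 14.06, 14.06 and 14.06 with siAHR-5. Each group lay below the one before it, and Ddx39a fell with a log2FC of -0.65 ± 0.0326 (SE, adjusted p = 2.91e-04 in limma) for siAHR-5, against -0.31 (adjusted p = 0.00217 in limma) for siAHR-2.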

How the data were processed

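RNA was sequenced in 18 libraries of rat fibroblasts, 3 per group, and samples were grouped by their labels. Per the paper's methods and the submitters' processing notes, the authors aligned reads to rn6 with HISAT2 2.1.0, dropped genes whose reads totalled under 10 and then ran DESeq2 normalization; the read counter and annotation are not given in the sources used here. The values the authors deposited are normalized log2 expression of 13188 genes. The transformation is likewise not given, and read depth is unknown, so that the spread between 3 cultures is the error used.

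Groups were compared only within the small set (6 libraries) and the large set (12 libraries). limma 3.58.1 (lmFit, eBayes with a mean-variance trend) in R 4.3.3 was fitted to all genes of the 6 libraries compared, or of 12 for the difference of the MYC effects, with Benjamini-Hochberg adjustment over all 13188 genes. The fits were tested on simulated data with independent noise and changes of 1 or 2 on the log2 scale. These held no outlying library and do not test calls near the fold cutoff. Members and lists were chosen with earlier results of these data known. Members past the cutoffs in a MYC or siRNA comparison were named with every library; the other members given with every library were chosen after their values were seen. Other transport genes were named when past the cutoffs in the same direction in both MYC comparisons or with an siRNA. Alternatives were the cutoff, the libraries in the fit, the trend, quantile normalization, median centring, a pseudocount of 1, a filter at a mean log2 value of 5, a replicate block and each library left out. Symbols of all 34 members matched the RefSeq table of GRCr8, used for promoters and overlapping genes only. Value columns without a sample numbered 0. Protein features were not analysed here. Nup133, Nup188, Nup50, Ipo5, Ipo8 and Ipo11 had no values under these symbols and could not be analysed. The same holds for the symbols Nup42, Nup58, Nup62cl, Kpna7, Seh1l and Ranbp3.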

Additional observations from a re-analysis of the deposited data

Results flagged for a closer look

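Of the values reported, 3 were set apart because the effect of MYC differed between the 2 sets by a test of the difference itself. For Nup155 the log2FC was 0.67 larger in the large set, and for Nup205 it was 0.63 larger. For Rangrf the difference was -1.06, with a smaller log2FC in the large set. Each passed the cutoffs in limma. The differences of Nup155 and Nup205 were 0.58 for both without myc-/- replicate 2. The sets also differ in scale and in which group carries the siCtrl label, and MYC cannot be told apart from these. Groups of 3 are too small for a test of single outlying libraries.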

How the results depend on the processing

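The alternatives changed no direction of a member past the cutoffs. Among the members below them, quantile normalization changed the sign of 6 in the small set, 2 in the large set, 2 with siAHR-2, 5 with siAHR-5, 0 for siAHR-5 against siAHR-2 and 2 in the difference between the sets. Median centring changed 1, 0, 3, 2, 3 and 2 in the same order. Counts moved mainly with the cutoff. With an FDR below 0.05 and no fold cutoff, the members higher and lower numbered 15 and 15 for MYC in the small set, 17 and 6 for MYC in the large one, 2 and 15 with siAHR-2, 4 and 14 with siAHR-5, and 10 and 12 for siAHR-5 against siAHR-2, and 21 differed between the sets. The other transport genes then numbered 29, 29, 18, 23, 17 and 25 in the same order. Quantile normalization left 5 members higher and 0 lower in the small set, with 10 higher in the large one, with 5 and 14 other transport genes. Median centring gave 2 members lower in the small set, 1 other transport gene with siAHR-2 and 3 in the difference between the sets. The cause was not tested. Leaving out each library in turn gave 0 to 2 members lower and 2 to 4 other transport genes in the small set. In the large set it gave 6 to 7 members higher, 0 to 1 lower and 8 to 10 other transport genes. It gave 0 to 2 members and 1 to 2 other transport genes in the difference, and 0 to 1 other transport gene with siAHR-2. Over these fits Xpo6 lay between -0.60 and -0.57 in the small set, and the differences of Nup155 and Nup205 between 0.58 and 0.72 and between 0.58 and 0.67. Among all genes called, the share that was higher moved from 63.4% to 50.2% (quantile normalization) or 45.9% (median centring) with siAHR-5, from 33.9% to 22.1% (centring) with siAHR-2, and from 41.3% to 52.6% (centring) in the difference. Quantile normalization moved it from 42.4% to 52% for MYC in the large set and from 46.7% to 51.7% in the small one.

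Replicate numbers showed no clear pairing of the samples. The mean correlation of same-numbered libraries was between -0.0287 and 0.0974 over the comparisons. In no comparison did every library correlate best with its own number, while 2 of 3 did for siAHR-5 against siCtrl and for siAHR-5 against siAHR-2. With 3 libraries per group this check cannot exclude pairing. With a replicate block, members higher and lower stayed at 3 and 1 in the small set and 6 and 0 in the large set, and 2 members were called in the difference, while over all genes the block left 0 higher and 0 lower with siAHR-2 (21 and 41 without it).

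Read depth is unknown, and 3 cultures per group limit the precision.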
